A study of Mus musculus with 4 samples.

Results

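The regions described here are 1716 stretches of accessible chromatin that carried a peak in every one of 4 microglia libraries and whose signal was at least 2 times higher in both IRF8KO libraries than in both WT libraries. They were found among 37888 autosomal regions shared by the 4 libraries, which in turn came from 93341 merged regions, so that 4.53% of the shared regions met the rule. The reverse pattern, WT at least 2 times IRF8KO, was met by 1134 shared regions (2.99%). They were thus selected on the deposited pileup itself, so their pileup is described here and not tested. Accessibility was read by ATAC-seq, in which the Tn5 transposase cuts open DNA and adds sequencing adapters, so that a pile of cut sites marks an accessible position. Microglia of untreated C57BL/6 mice aged 3 months were isolated without enzymes, sorted by flow cytometry and tagmented, and 2 libraries (replicates 1 and 2) were labelled WT and 2 IRF8KO. The labels do not describe the IRF8KO allele or say whether it acts in all tissues, and they do not say whether the replicates came from separate mice, so that the spread between replicates may be technical.

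Microglia are the resident macrophages of the brain. IRF8 belongs to the interferon regulatory factors, a family of transcription factors, and is needed for the development of several myeloid cell types. It binds DNA weakly alone and more strongly with the ETS factor PU.1, at composite ETS-IRF elements, or with AP-1 proteins of the BATF family. AP-1, CEBP and RUNX factors bind other elements in macrophage enhancers, together with PU.1, and are known for stimulus-dependent (AP-1), granulocytic and monocytic (CEBP) and haematopoietic (RUNX) gene programmes.

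The sequences below show AP-1, CEBP and RUNX letters, which were more frequent in the 1716 regions than in all shared regions although most of the members lack each of them, and some PU.1, ETS-IRF and ISRE letters, which were not. Each is the best summit of IRF8KO replicate 1 with 100 bases on each side, taken from GRCm38 and read on the plus strand. Capitals mark matches on either strand to AP-1 (TGACTCA or TGAGTCA), CEBP (TTGCNNAA), RUNX (TGTGGTT), PU.1 (GAGGAAGT), the ETS-IRF composite (GGAA and GAAA separated by 2 bases) and the interferon-stimulated response element or ISRE (GAAA and GAAA separated by 2 bases). A match is a string of letters and not a measured binding event. The sequences were chosen to show matches, except that of Clca4b, which has one of the largest ratios and none of these letters. The first set holds AP-1 matches and comes from members with the largest ratios, with the promoter member at Ctla2b and, last, the Clca4b region.
Htra3 (intron of Htra3, chr5:35673177-35673377, plus strand): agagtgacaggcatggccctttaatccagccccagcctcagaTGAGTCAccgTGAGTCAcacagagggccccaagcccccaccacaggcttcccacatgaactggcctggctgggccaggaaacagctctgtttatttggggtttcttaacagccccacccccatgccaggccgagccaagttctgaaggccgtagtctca
Cpeb2 (between genes, nearest to Cpeb2, chr5:43048748-43048948, plus strand): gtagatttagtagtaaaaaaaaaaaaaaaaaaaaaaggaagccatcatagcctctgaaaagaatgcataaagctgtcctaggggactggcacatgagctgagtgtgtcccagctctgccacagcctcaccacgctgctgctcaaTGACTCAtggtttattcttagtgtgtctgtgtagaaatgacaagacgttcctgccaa
Gm43552 (intron shared by Gm43552 and Smim14, chr5:65484036-65484236, plus strand): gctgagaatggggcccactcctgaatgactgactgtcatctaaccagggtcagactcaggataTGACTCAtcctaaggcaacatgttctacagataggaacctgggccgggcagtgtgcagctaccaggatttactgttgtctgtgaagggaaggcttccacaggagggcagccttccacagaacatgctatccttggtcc
Ctla2b (promoter of Ctla2b, chr13:60897462-60897662, plus strand): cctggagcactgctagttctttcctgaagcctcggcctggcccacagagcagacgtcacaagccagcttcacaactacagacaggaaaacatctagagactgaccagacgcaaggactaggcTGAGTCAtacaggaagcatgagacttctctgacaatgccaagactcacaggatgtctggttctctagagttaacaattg
Clca4b (between genes, nearest to Clca4b, without a match, chr3:144897268-144897468, plus strand): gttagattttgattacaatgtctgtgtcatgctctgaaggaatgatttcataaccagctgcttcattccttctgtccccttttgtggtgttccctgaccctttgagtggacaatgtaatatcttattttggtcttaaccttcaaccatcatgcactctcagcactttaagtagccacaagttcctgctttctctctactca

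The second set holds CEBP matches. Cp and Tex10 name the genes nearest to 2 of the members with the largest ratios, and the Csf3r and Runx2 regions come from the gene lists below. The last 2, Csf3r and Runx2, were picked for their matches after the values had been seen.
Cp (between genes, nearest to Cp, chr3:19954004-19954204, plus strand): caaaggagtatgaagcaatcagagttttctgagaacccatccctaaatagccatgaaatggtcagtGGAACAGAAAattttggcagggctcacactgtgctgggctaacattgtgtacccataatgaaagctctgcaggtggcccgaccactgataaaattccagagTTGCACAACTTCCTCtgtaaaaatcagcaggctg
Tex10 (intron of Invs, nearest to Tex10, chr4:48419135-48419335, plus strand): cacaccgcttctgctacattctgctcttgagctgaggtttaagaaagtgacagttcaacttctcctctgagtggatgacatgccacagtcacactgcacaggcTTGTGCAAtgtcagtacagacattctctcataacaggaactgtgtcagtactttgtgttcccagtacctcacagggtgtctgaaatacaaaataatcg
Csf3r (between genes, nearest to Csf3r, chr4:126017800-126018000, plus strand): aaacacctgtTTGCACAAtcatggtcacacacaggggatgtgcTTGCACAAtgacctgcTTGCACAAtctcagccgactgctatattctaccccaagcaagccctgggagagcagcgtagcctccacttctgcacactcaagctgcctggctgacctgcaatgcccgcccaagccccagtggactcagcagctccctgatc
Runx2 (intron of Runx2, chr17:44709943-44710143, plus strand): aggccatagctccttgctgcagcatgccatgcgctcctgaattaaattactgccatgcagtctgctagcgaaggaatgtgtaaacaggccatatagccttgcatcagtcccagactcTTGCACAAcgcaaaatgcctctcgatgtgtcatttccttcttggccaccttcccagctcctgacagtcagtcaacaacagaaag

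The third set shows a region in which AP-1, CEBP and RUNX letters lie together and a region that carries ISRE letters instead. Both were picked for their matches after the values had been seen.
Abca1 (between genes, nearest to Abca1, chr4:53227875-53228075, plus strand): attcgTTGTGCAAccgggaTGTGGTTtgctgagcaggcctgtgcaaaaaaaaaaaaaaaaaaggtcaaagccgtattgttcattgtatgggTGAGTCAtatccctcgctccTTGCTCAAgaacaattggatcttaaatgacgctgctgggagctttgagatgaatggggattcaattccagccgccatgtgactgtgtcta
Rsad2 (between genes, nearest to Rsad2, chr12:26460219-26460419, plus strand): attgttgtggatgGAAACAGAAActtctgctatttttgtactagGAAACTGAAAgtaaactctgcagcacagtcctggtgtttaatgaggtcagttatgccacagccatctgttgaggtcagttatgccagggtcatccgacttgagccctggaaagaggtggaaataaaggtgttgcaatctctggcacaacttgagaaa

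The Htra3 window held TGAGTCA 2 times, starting 58 and 48 bases before the summit. Cpeb2 held TGACTCA starting 44 bases after the summit, the Smim14 intron held it 37 bases before and Ctla2b held TGAGTCA 22 bases after. The Csf3r window held TTGCACAA 3 times, starting 90, 57 and 41 bases before the summit, and the Cp and Runx2 windows held the same 8 letters once each. The Abca1 window held TGAGTCA 9 bases before the summit, with CEBP letters on both sides of it and TGTGGTT 81 bases before. The Rsad2 window held neither AP-1, CEBP nor RUNX letters, but GAAACAGAAA and GAAACTGAAA starting 87 and 56 bases before its summit.

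The level of a region in a library is its largest deposited pileup, the number of extended cut sites stacked over its summit, and the scaled level is that pileup divided by the library's median over the 37888 shared regions. Tags numbered 46948938 and 48896408 in the WT libraries and 78793572 and 66224648 in the IRF8KO libraries, always given as replicate 1 and then replicate 2, and the median pileup over the shared regions was 58, 49, 58 and 76 in the same order. A peak had to reach 0.25 pileup per 1000000 tags to count, which is a pileup of 11.7, 12.2, 19.7 and 16.6. The targeted gene, Irf8 on chromosome 8, was the nearest gene to 17 shared regions. Its promoter region (chr8:120735860-120736887) had pileups of 97, 73, 68 and 90, but the labels do not give the deleted part, so these values do not check the genotype. A single member, chr8:120716044-120716380 and 19.98 kb from the Irf8 start, had pileups of 15, 14, 90 and 109. All 7 microglia marker genes examined (Csf1r, Cx3cr1, P2ry12, Tmem119, Spi1, Aif1 and Siglech) had a promoter peak in all 4 libraries, with a summed scaled level of 18.1 and 15.4 in WT and 12.7 and 13.1 in IRF8KO, and none of the shared regions nearest to them was a member. In sorted cells a region that opens in more cells and one that opens more widely in each cell cannot be told apart.

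The 1716 members were mostly weak regions in WT that stood well above the typical shared region in IRF8KO. Their median pileup was 29 and 23 in WT, and it was 100.5 and 132 in IRF8KO. On the scaled level these medians were 0.5, 0.469, 1.73 and 1.74, where 1 is the median shared region of a library. In 1042 members (60.7%) both WT values lay below 1 and both IRF8KO values above it, whereas 302 were at or above 1 in at least one WT library. The remaining 372 stayed at or below 1 in at least one IRF8KO library.

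**Figure D1:**
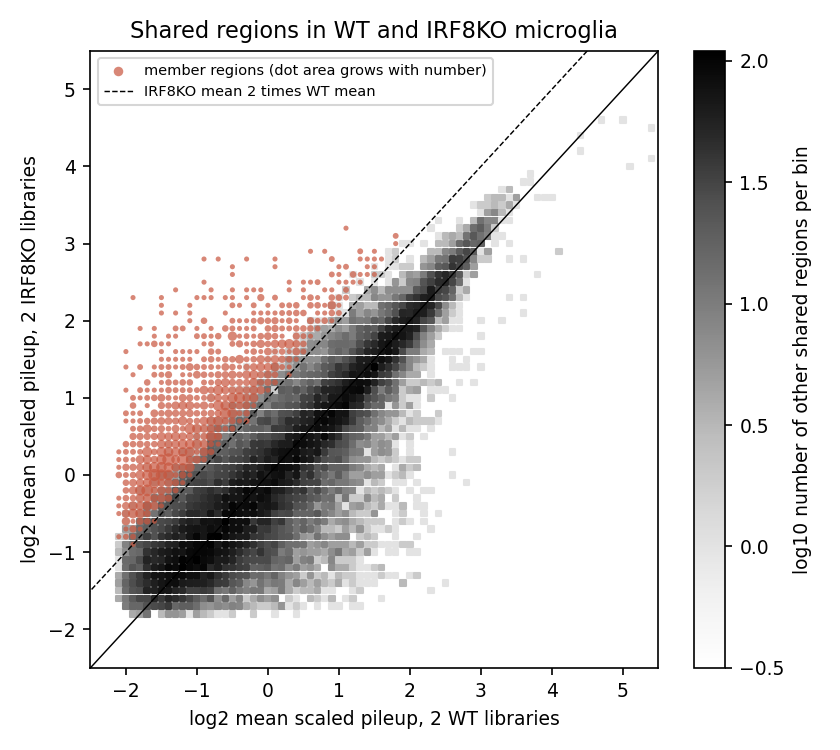
Mean scaled pileup of the 37888 shared regions on log2 axes, with the mean of the 2 WT libraries on the horizontal axis and the mean of the 2 IRF8KO libraries on the vertical axis. Grey bins count the regions that are not members, on a log10 shade, red dots are bins of the 1716 members with an area that grows with their number, the solid line is equality and the dashed line is an IRF8KO mean of 2 times the WT mean. Members lie above the dashed line by construction, and most sit left of 0, the WT level of the median shared region.

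The size of the difference is set from below by the rule and is given as a description. The ratio of the lower IRF8KO to the higher WT scaled value had a median of 2.58 and reached 15.3. It was 3 or more in 576 members and 5 or more in 114. Just inside the threshold, 226 members had a ratio from 2 to 2.1, and just outside it 225 shared regions lay from 1.9 to 2. The members nearest the threshold, by Cdyl, Rpp14 and Cd47, had ratios of 2, and the regions just below it, by Alox5, Ssh2 and Usp25, had ratios of 1.999, 1.997 and 1.997. Nothing in the values sets the last members apart from the first regions left out.

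The spread between replicates in the members is given as a description, since the rule, which takes the lower IRF8KO and the higher WT value, favours regions whose replicates are alike. The scaled level of IRF8KO replicate 2 relative to replicate 1 had a median of 0.983 over the members and lay between 0.719 and 1.36 in the central 90% of them. For WT the median was 1.002 and the same range was 0.683 to 1.51. The ranges over all shared regions were 0.631 to 1.47 for IRF8KO and 0.693 to 1.49 for WT. In 363 members both WT pileups were under 20, near the smallest peak that counts, so that their ratios rest on few cut sites in WT.

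How many regions passed depended on what the pileup was divided by. With the total tags of each library in place of its median, the median log2 ratio of IRF8KO to WT over all shared regions moved from 0.00 to -0.25. The regions past the rule then numbered 693 (1.83%) against 1262 in the reverse direction (3.33%), compared with 1716 and 1134 under median scaling, so the balance of the directions turned. All 1716 members had both IRF8KO values above both WT values per total tag, but the rule fixes this in advance and it is no check. The median pileup per tag differed between the libraries by less than 2 times, so a median-scaled ratio of at least 2 keeps that order. Of the members, 688 (40.1%) stayed past 2 times per total tag. By the deposited fold enrichment over local background, 1673 had both IRF8KO values above both WT values and 584 stayed past 2 times. Total tags and tag size (50 bp in WT and 49 bp in IRF8KO) followed genotype, so depth and genotype cannot be told apart in the size of the ratio.

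The member with the largest ratio lay in an intron of Htra3, a secreted serine protease, at chr5:35673111-35673640 and 1.56 kb from the transcription start site (TSS). Its pileup was 14 and 15 in the WT libraries and 288 and 357 in the IRF8KO libraries. Scaled levels were 0.274 ± 0.046 in the WT libraries and 4.83 ± 0.19 in the IRF8KO libraries (SD over 2 libraries), a ratio of 15.3 between the lower IRF8KO and the higher WT value. It is the region with the 2 adjacent TGAGTCA matches shown above. In both WT libraries it was barely above the smallest peak that counts, and in both IRF8KO libraries it was among the strong shared regions.

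Next came chr5:43048300-43049058, between genes and 184 kb from Cpeb2, which encodes an RNA-binding regulator of translation. Pileups there were 29 and 27 in WT and 404 and 532 in IRF8KO, with scaled levels of 0.526 ± 0.036 and 6.98 ± 0.024 (SD over 2 libraries). A region in an intron of March11, a membrane-bound ubiquitin ligase (chr15:26360355-26360702), had 21 and 17 against 265 and 338. A region over a UTR of Eloc, the elongin C subunit of ubiquitin ligase complexes (chr1:16641921-16642674), had 20 and 22 against 306 and 390. The ratios of these 3 regions were 12.6, 12.3 and 11.4.

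Of the first 10, 9 are described here. St6gal1, which adds sialic acid to glycoproteins, held an intronic member (chr16:23314759-23315329) with pileups of 17 and 14 in WT against 231 and 251 in IRF8KO. The member nearest to Cp, which encodes the copper-carrying ferroxidase ceruloplasmin (chr3:19953875-19954328), had pileups of 13 and 23 against 297 and 340. Both regions held CEBP letters, and their ratios were 11.3 and 9.53. In the Cp region the WT replicates differed most among these 9, at scaled levels of 0.224 and 0.469, and both stayed far below the IRF8KO levels of 5.12 and 4.47.

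The other members among the 9 lay 34.7 kb from Clca4b, a chloride channel regulator (chr3:144897030-144897802), in an intron of the overlapping Gm43552 and Smim14 (chr5:65483972-65484325), and in an intron of Invs, which encodes the ciliary protein inversin (chr4:48418931-48419578, with Tex10 as the nearest TSS). Pileups at the Clca4b region were 42 and 25 in WT and 427 and 535 in IRF8KO. In the Smim14 intron they were 13 and 13 against 170 and 189, and in the Invs intron 16 and 22 against 244 and 324. None of the 9 lay within 1 kb of a TSS, and their ratios ended at 9.37.

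**Figure D2:**
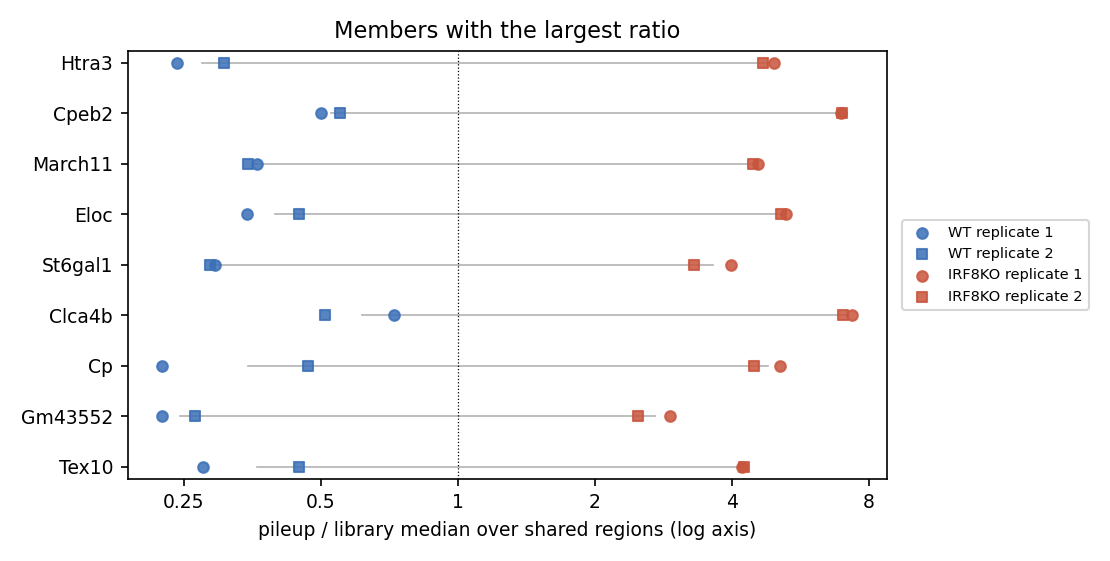
Scaled pileup (log axis) in each library of 9 of the 10 members with the largest ratio, named by the gene with the nearest start site, with WT in blue, IRF8KO in red, circles for replicate 1 and squares for replicate 2. Each grey line joins the genotype means and the dotted line at 1 is the median shared region of a library. All WT values lie below 1, from 0.224 to 0.724, and all IRF8KO values lie between 2.49 and 7.36.

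The 5 members that were strongest in IRF8KO were already above the median shared region in WT, unlike the Clca4b and Cpeb2 regions given above, which were nearly as strong in IRF8KO. The region with the highest level (chr18:36708650-36709282, 12.7 kb from E230025N22Rik) had pileups of 116 and 109 in WT and 564 and 655 in IRF8KO, a ratio of 3.87. A region 123 kb from Nfkbiz, an inducible regulator of NF-kB target genes (chr16:55698358-55699012), had 199 and 162 against 530 and 643. A region 117 kb from Id2, an inhibitor of basic helix-loop-helix factors (chr12:25213722-25214551), had 138 and 131 against 449 and 547. The Nfkbiz and Id2 regions were beyond the 100 kb used to assign regions to genes, so their gene is only the nearest one. The other members of this kind lay in an exon of 2010111I01Rik (chr13:63278753-63279385) and in an intron of Oxr1 (chr15:41612108-41612744), with ratios of 2.31 and 2.06. All 5 had WT scaled levels of at least 2, so they were open in both genotypes.

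Few of the regions were promoters. Within 1 kb of the TSS of a protein-coding gene lay 168 members, 9.79% (95% Wilson interval 8.47% to 11.3%), against 36.996% of all shared regions (36.5% to 37.5%) and 12.6% of the reverse regions (10.8% to 14.7%). Members lay in introns in 47.4% of cases and between genes in 46.0%, against 39.5% and 42.3% of all shared regions. Only 3.50% overlapped a UTR and 1.86% a coding exon, against 12.9% and 3.25%. Members lay a median of 18244 bp from a TSS, against 15865.5 bp for the reverse regions and 5178 bp for all shared regions. The lower share of promoters was thus found in both directions of difference. Intervals here and below cover counting error only, since regions are not replicates of a genotype.

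The member promoter with the largest ratio was that of Ctla2b, a relative of cysteine protease propeptides (chr13:60897223-60897883), with pileups of 34 and 23 in WT and 327 and 417 in IRF8KO and a ratio of 9.36. The next covered a start site inside Retreg1, an endoplasmic reticulum autophagy receptor, in an intron of the gene (chr15:25940277-25940775). Pileups there were 15 and 13 against 117 and 140. The promoter of Cxcl2, a neutrophil-attracting chemokine, had 38 and 35 against 318 and 344. Ctla2b has a closely related copy, Ctla2a, between which and Ctla2b the authors' alignment could have split reads, so this value is uncertain. The promoters of Myo10, a myosin of cell protrusions, and Itih1, a hyaluronan-binding plasma protein, followed with ratios of 6.33 and 6.04. At Myo10 the pileups were 30 and 23 against 190 and 272, and at Itih1 they were 23 and 16 against 139 and 188. WT pileups were thus low at all 5 promoters.

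Members were longer and less rich in G and C than shared regions at large. Their median length was 483 bp against 447 bp, and the median GC content of the summit windows was 49.3% against 53.2%. The reverse regions had 442 bp and 49.8%. The bases covered by peaks within a member had medians of 317 and 290 in WT and 436.5 and 450 in IRF8KO, while over all shared regions they were 358, 328, 361 and 387. The best summit of IRF8KO replicate 1 lay within 50 bp of that of WT replicate 1 in 74.8% of members and 80.7% of shared regions. Between the IRF8KO replicates the share was 87.6% of members, and between the WT replicates 79.0%.

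Of the 1716 members, 528 (30.8%) lay within 50 kb of another member. Of the 1134 reverse regions, a smaller set in which fewer neighbours would be met, 279 (24.6%) lay within 50 kb of another of their kind. Shared regions within 50 kb of a member that were not members themselves numbered 6673. In 2237 of these (33.5%) both IRF8KO values exceeded both WT values, against 26.5% of all 36172 shared regions that were not members (29.9% with the members). The reverse rule was met by 155 (2.32%), against 3.14% of all that were not members.

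Assigned to the nearest TSS within 100 kb, 1536 members (89.5%) fell to 1262 genes, out of 12860 genes with any shared region. A single member was found at 1052 genes, 2 at 165 and 3 or more at 45. The most, 6, were found at Pmepa1, a TGF-beta-induced inhibitor of SMAD signalling, among 18 shared regions, and at Rbms1, an RNA-binding protein, among 12. By the deposited fold enrichment the genotypes overlapped at all Pmepa1 members but chr2:173347351-173347854 and chr2:173307535-173307951. At Rbms1 they overlapped only at chr2:60901449-60901993. The genes with 5 were 2010111I01Rik, Snx18, a sorting nexin, and Spred2, an inhibitor of the Ras-ERK pathway. With 4 followed Asph, Cd44, Creb5, Fbxo11, Rbm47, Retreg1 and Smad3. The genes of this paragraph were ranked by their number of members, so these counts are a description.

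At Spred2 the 5 members among 13 shared regions had ratios from 2.43 to 7.44, the highest at chr11:19979379-19979792 with pileups of 14 and 13 in WT and 126 and 150 in IRF8KO. At Smad3, the transducer of TGF-beta signals, the 4 members among 14 shared regions, of which 1 met the reverse rule, had ratios from 2.44 to 4.11, with 31 and 19 against 130 and 167 at the highest (chr9:63684310-63684674). Tlr2, the receptor for bacterial lipoproteins, had 3 members among 7 shared regions, the highest at chr3:83844847-83845589 with 42 and 30 against 300 and 330 and a ratio of 6. Bhlhe40, a transcriptional repressor with a role in macrophage proliferation, also had 3 among 7, the highest at chr6:108659247-108660735 with 43 and 56 against 317 and 310. The genes of this paragraph were named after their values and counts had been seen, so their shares cannot be read against the 4.53% of all shared regions.

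The gene lists differed in how many of their regions were members, and the share over all shared regions was 4.53%. The lists were chosen with earlier results of these data known, so their shares are a description. Border macrophage genes, which mark the macrophages of the meninges and vessels more than microglia, had 7 members among 30 shared regions (23.3%) and none in the reverse direction. The cytokine and chemokine list had 9 of 63 (14.3%), the CEBP and RUNX factors 10 of 81 (12.3%), the monocyte and neutrophil list 3 of 28 (10.7%) and the lysosome and lipid list 9 of 105 (8.57%). Reverse regions in these 4 lists numbered 2, 2, 0 and 2. Close to the background or below it were the disease-associated microglia genes with 6 of 89 (6.74%), the AP-1 factors with 3 of 81 (3.70%), the homeostatic microglia genes with 4 of 156 (2.56%) and the interferon response genes with 2 of 79 (2.53%). In those 4 lists the reverse regions numbered 5, 5, 7 and 5. The median log2 ratio over all regions of a list, members or not, was 0.58 for border macrophage genes, 0.26 for CEBP and RUNX factors and 0.21 for disease-associated genes, against 0.00 over all shared regions, and lay from -0.06 to 0.06 in the other 6 lists.

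**Figure D3:**
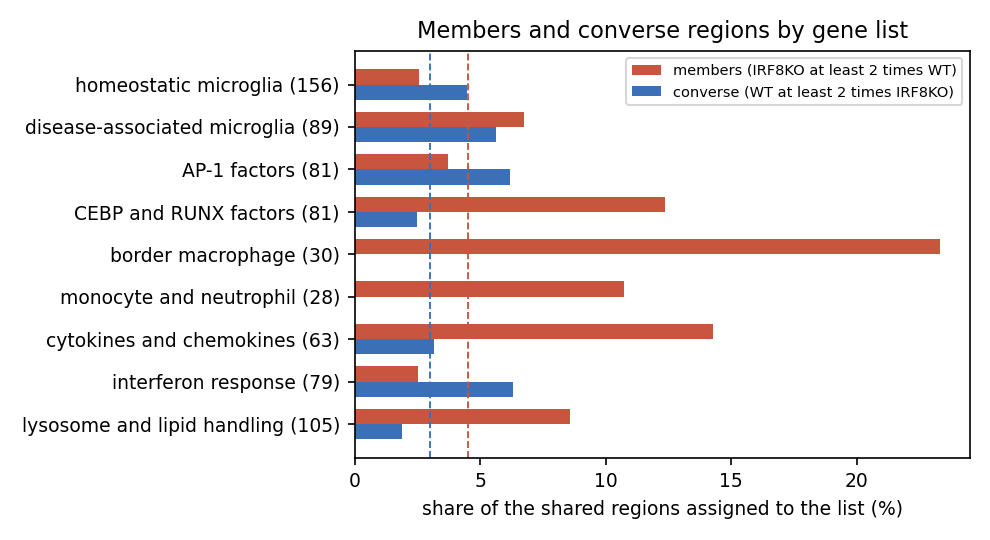
Share of the shared regions assigned to each gene list that were members (red) or met the reverse rule (blue), in percent, with the number of shared regions of the list in brackets. The dashed lines give the shares over all shared regions, 4.53% in red and 2.99% in blue. Border macrophage genes reach 23.3% and have no reverse region, while the homeostatic, AP-1 and interferon lists have more reverse regions than members.

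Among border macrophage genes each of the 7 members lay at a different gene. The promoter of Pf4, which encodes platelet factor 4 (chr5:90771284-90772727), had pileups of 21 and 16 in WT and 102 and 125 in IRF8KO, and a ratio of 4.54. The region 0.522 kb from the start of Mrc1, the mannose receptor (chr2:14228567-14228870), had 16 and 14 against 45 and 75. An intronic region of Stab1, a scavenger receptor (chr14:31166043-31166641), was open in both genotypes at 103 and 93 against 394 and 387. The others lay at Ms4a6c (4.02 kb from its start, in a UTR of Ms4a4b), Cbr2, Clec4n and Dab2, with ratios from 2.07 to 2.99. WT values were below 1 on the scaled level in all of these regions but the one at Stab1, which had 1.78 and 1.898. Of the 15 genes on the list 13 had a shared region. The median log2 ratio over a gene's shared regions was below 0 at Lyve1 (-0.55), Siglec1 (-0.44) and F13a1 (-0.26), which had no member, and the part of border macrophages among the sorted cells was not tested.

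The 9 cytokine and chemokine members lay at 6 genes, with 2 each at Cxcl1, Cxcl2 and Ccl2. The region 3.01 kb from Cxcl1 (chr5:90894247-90894610) had pileups of 18 and 14 in WT and 122 and 158 in IRF8KO, and the Cxcl2 promoter reached 318 and 344 as given above. Both genes encode ligands of the neutrophil receptor CXCR2. From 20 kb before Pf4 to 20 kb after Cxcl2, at chr5:90752435-90925938, there were 7 shared regions, of which 6 were members, with ratios of 4.54, 5.91, 2.29, 6.70, 3.24 and 6.34 in order along the chromosome. The remaining one (chr5:90909055-90909284), which held an AP-1 and a CTCF match, had pileups of 24 and 19 against 23 and 28 and a ratio of 0.89. This stretch was chosen after its values had been seen. Not all of its members belong to the cytokine and chemokine list, as Pf4 is on the border macrophage list.

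Other members of this list lay by Il12a, a subunit of interleukin 12 (chr3:68676862-68677387), with 20 and 13 in WT against 127 and 171 in IRF8KO, and by Cxcl14 (chr13:56353187-56353729), with 38 and 35 against 265 and 265. The region by Il1a, which encodes the alarmin interleukin 1 alpha (chr2:129338032-129338751), had 26 and 20 against 150 and 131. The median log2 ratio over the 6 shared regions of Il1a was nevertheless -0.57. Ccl2, which attracts monocytes, had 2 members, 12.5 and 20.1 kb from its start, with ratios of 2.83 and 2.29. The region of Ccl2 with the higher ratio held an ETS-IRF match. The 2 reverse regions of this list lay by Il1b and Cxcl16. Among its genes without a member, the median log2 ratio over a gene's shared regions was below 0 at Cxcl16 (-1.78), Il18 (-0.70), Il1b (-0.55), Ccl9 (-0.45), Il6 (-0.39), Il10 (-0.33), Il12b, Ccl5 and Ccl4. It was above 0 at Ccl3 (1.39), Tnf (0.96), Ccl7 (0.64), Cxcl10, Ccl12 and Tgfb1.

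For the CEBP and RUNX factors the members were spread over 6 of the 9 genes. Runx2, best known for bone formation, had 3, the highest in its intron (chr17:44709905-44710259) with pileups of 15 and 19 in WT and 111 and 155 in IRF8KO. Runx1, the haematopoietic family member, had 2, at ratios of 2.52 and 2.09, beside the only 2 reverse regions of this list, and Runx3 had 2 at 3.13 and 2.33. Cebpd lay 69.1 kb from a member in an intron of Spidr (chr16:15956366-15956999) with 35 and 26 against 140 and 190. The Cebpb member, 76.3 kb away, had 17 and 14 against 61 and 73, and the Cebpa member, 12.3 kb away, had 21 and 16 against 49 and 63. The AP-1 factors, with a share of members near the 4.53% of all shared regions, had members at Jdp2, Fosl2 and Atf3, with ratios of 3.24, 2.25 and 2.19, and 5 reverse regions, 2 at Batf3 and 1 each at Fosb, Batf2 and Jdp2. None of the shared regions nearest to Fos, Fosb, Jun, Junb, Jund, Batf, Batf2 or Batf3 was a member, and Fosl1 had no shared region.

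Lipid handling genes held the members with the largest ratios of the lysosome and lipid list. At Plin2, which coats lipid droplets, a region 20.1 kb from the start (chr4:86690169-86690569) had pileups of 39 and 25 in WT and 266 and 382 in IRF8KO, a ratio of 6.82, and a second member had a ratio of 2.62. At Abca1, the cholesterol efflux pump, a region 67.9 kb away (chr4:53227767-53228260) had 18 and 25 against 140 and 214, and a nearer one (chr4:53149636-53150092) had 101 and 77 against 255 and 369. The nuclear receptor gene Ppard had 1 intronic member at 47 and 32 against 252 and 204. Tfeb and Tfec, related factors of lysosomal gene control, had members at ratios of 3.10 for Tfeb and 3.16 and 2.15 for Tfec, and Soat1, which esterifies cholesterol, had 1 at 2.64. Abca1 and Abcg1 each also had 1 reverse region.

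Homeostatic microglia genes had members only at Mertk, Trem2 and Rhob. The 2 members at Mertk, a receptor for the clearance of dying cells, had ratios of 2.13 and 2.07, that at the Trem2 promoter 2.03 and that 66.7 kb from Rhob 2.29. The reverse regions of the list lay by Tgfbr1, Csf1r, Mef2c, Selplg, Cst3 and Itgam. Disease-associated genes had members at Clec7a, Cd63, Cd9, Apoe, Ctsl and Lgals3, of which the Clec7a region, 1.69 kb from the start of the gene for dectin-1, had the largest ratio, at WT pileups of 27 and 15 and IRF8KO pileups of 98 and 153. The reverse regions of this list lay by Lyz2, Csf1, Ctsb, Fabp5 and Lgals3, and the median log2 ratio over a gene's shared regions was also below 0 at Spp1 (-0.84), Axl (-0.51), Cd52 (-0.51), Ctsz (-0.65) and Timp2 (-0.24). The Apoe region, 0.406 kb from a start site, had 19 and 21 against 63 and 120. By the deposited fold enrichment its genotypes overlapped, at 4.37 and 5.11 in WT and 4.72 and 7.76 in IRF8KO.

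Both interferon response members lay at Rsad2, which encodes the antiviral enzyme viperin. The region 3.71 kb from its start (chr12:26460160-26460494), whose ISRE letters are shown above, had pileups of 21 and 24 in WT and 199 and 291 in IRF8KO, a ratio of 7.01. Its promoter region (chr12:26456315-26456717) had 32 and 17 against 89 and 129. The reverse regions of this list lay by Irf2, Irf5, Mx1, H2-Ab1 and Cd74, so Rsad2 was alone among 22 genes with a shared region in holding members.

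The monocyte and neutrophil members were 2 regions at Itga4, the integrin alpha 4 chain, and 1 by Csf3r, the receptor for granulocyte colony-stimulating factor. The Itga4 promoter (chr2:79254646-79255652) had pileups of 130 and 109 in WT and 347 and 438 in IRF8KO, and was thus strong in both genotypes. The Csf3r region (chr4:126017660-126018217), with the 3 CEBP matches, had 19 and 17 against 51 and 55. Only 10 of the 20 genes on this list had a shared region, and the granule protein genes on it had no member.

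**Figure D4:**
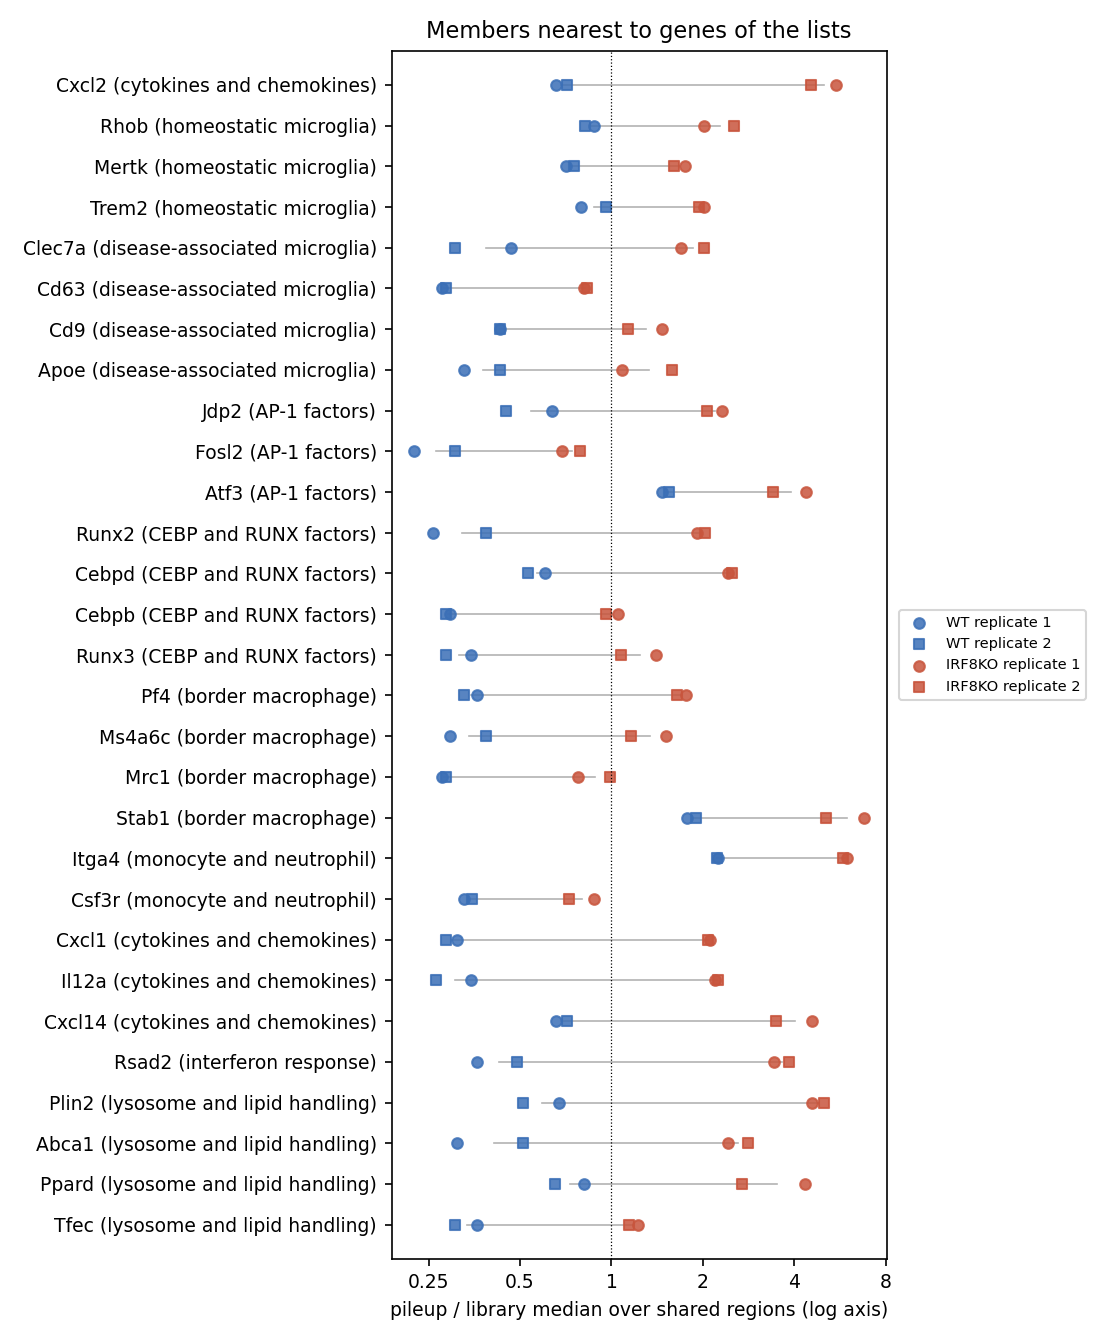
Scaled pileup (log axis) in each library of the members named for the gene lists, with the gene and its list on the left, WT in blue, IRF8KO in red, circles for replicate 1 and squares for replicate 2. Each grey line joins the genotype means and the dotted line at 1 is the median shared region of a library. The IRF8KO points lie right of the WT points by the rule, and the regions at Stab1, Itga4 and Atf3 are above 1 in WT as well.

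Marker genes of other cell types were examined by promoter peaks in each library on its own and by the shared regions nearest to them. Promoter peaks were found at 5 and 4 of 6 endothelial genes in WT and 4 and 3 in IRF8KO, with a summed scaled level of 6.57 and 6.61 in WT and 2.47 and 2 in IRF8KO. For astrocyte genes they were found at 4 and 2 of 6 in WT and 1 and 2 in IRF8KO, with sums of 1.43, 1.10, 1.16 and 1.67. For the 5 autosomal oligodendrocyte genes they were found at 2, 3, 1 and 1, with sums of 1.66, 1.78, 0.672 and 0.855. For neuron genes they were found at 2, 2, 0 and 2 of 6, with sums of 0.621, 0.816, 0 and 0.526. Aqp4 and Gja1 (astrocyte), Mag and Sox10 (oligodendrocyte), Tek (endothelial) and Rbfox3, Syt1 and Gad1 (neuron) had no promoter peak in any library. Members near these lists were 1 of 15 shared regions for astrocytes (Slc1a3), 1 of 14 for oligodendrocytes (Mbp) and 1 of 14 for endothelium (Flt1, with pileups of 53 and 49 against 329 and 328). These shares, 6.67%, 7.14% and 7.14%, rest on 1 region each and stand beside 4.53% of all shared regions. Reverse regions in these lists numbered 0, 3 and 3, at Mbp for oligodendrocytes and at Pecam1, Kdr and Cdh5 for endothelium. The share of reverse regions over all shared regions was 2.99%. The Cd3d promoter, of a T cell receptor chain, was a member with pileups of 41 and 53 in WT and 271 and 228 in IRF8KO, while Cd3e, Cd79a and Ms4a1 had no promoter peak in any library. The part of other cells in the members was not tested.

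AP-1, CEBP and RUNX letters were each found at about 2 to 3 times the share of all shared windows. AP-1 matched 326 of the 1716 windows, 19.0% (95% Wilson interval 17.2% to 20.9%), against 6.40% of the windows of all shared regions, of the same length, and 7.67% of the reverse windows. CEBP matched 345, 20.1% (18.3% to 22.1%), against 9.54% and 8.91%. RUNX matched 207, 12.1% (10.6% to 13.7%), against 5.75% and 5.91%. The MAF letters TGCTGAC were found in 11.2%, against 5.47% and 6.44%. At least one of AP-1, CEBP and RUNX was found in 44.5% of member windows and in 20.04% of all shared windows, and AP-1 and CEBP were found together in 2.91% and 0.63%.

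The ETS-IRF composite, the ISRE and the PU.1 letters were not more frequent in members than in all shared windows, and composites of AP-1 with IRF letters were not searched for. The ETS-IRF composite was found in 38 member windows, 2.21% (1.62% to 3.02%), against 3.78% of all shared windows and 17.9% of the reverse windows. The ISRE was found in 3.03%, 3.15% and 5.73%, and the PU.1 letters in 10.1% (8.75% to 11.6%), 10.5% and 17.0%. The E-box CACGTG was found in 6.00% of members, 5.75% of shared and 3.70% of reverse windows, and the NF-kB motif in 7.11%, 6.37% and 4.76%. CTCF matches were found in 0.35% of member windows against 4.55% of shared and 0.97% of reverse windows. MEF2 matches were rare in all 3 sets, at 0.82%, 0.62% and 0.44%, and no NRF1 match was found in the 1716 member windows, which allows a share of up to 0.223% (upper Wilson bound).

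The shares also differed among promoters and among distal regions taken alone. In the 1548 members over 1 kb from a TSS, AP-1 was found in 19.4% against 8.31% of the 23871 distal shared windows, CEBP in 20.03% against 11.6%, RUNX in 12.6% against 7.55% and MAF in 11.7% against 6.79%. PU.1 was found in 9.75% against 14.0% and ETS-IRF in 2.33% against 4.73%, both lower than in distal shared regions at large. In the 168 promoter members AP-1 was found in 14.9% against 3.14% of promoter windows, CEBP in 20.8% against 6.09%, RUNX in 7.14% against 2.68% and PU.1 in 13.1% against 4.55%.

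Within the members, the shares of AP-1, CEBP and RUNX were higher where the ratio was larger. AP-1 was found in 17.1% of the 1140 members with a ratio from 2 to 3, 21.9% of the 462 from 3 to 5 and 26.3% (19.1% to 35.1%) of the 114 at 5 or more. CEBP was found in 19.0%, 20.8% and 28.1% (20.6% to 36.9%), and RUNX in 11.1%, 13.2% and 16.7% (10.9% to 24.6%). PU.1 went from 11.0% to 8.44% and 7.89% (4.21% to 14.3%). The intervals of the lowest and highest class overlapped for RUNX and PU.1 and, narrowly, for AP-1 and CEBP.

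**Figure D5:**
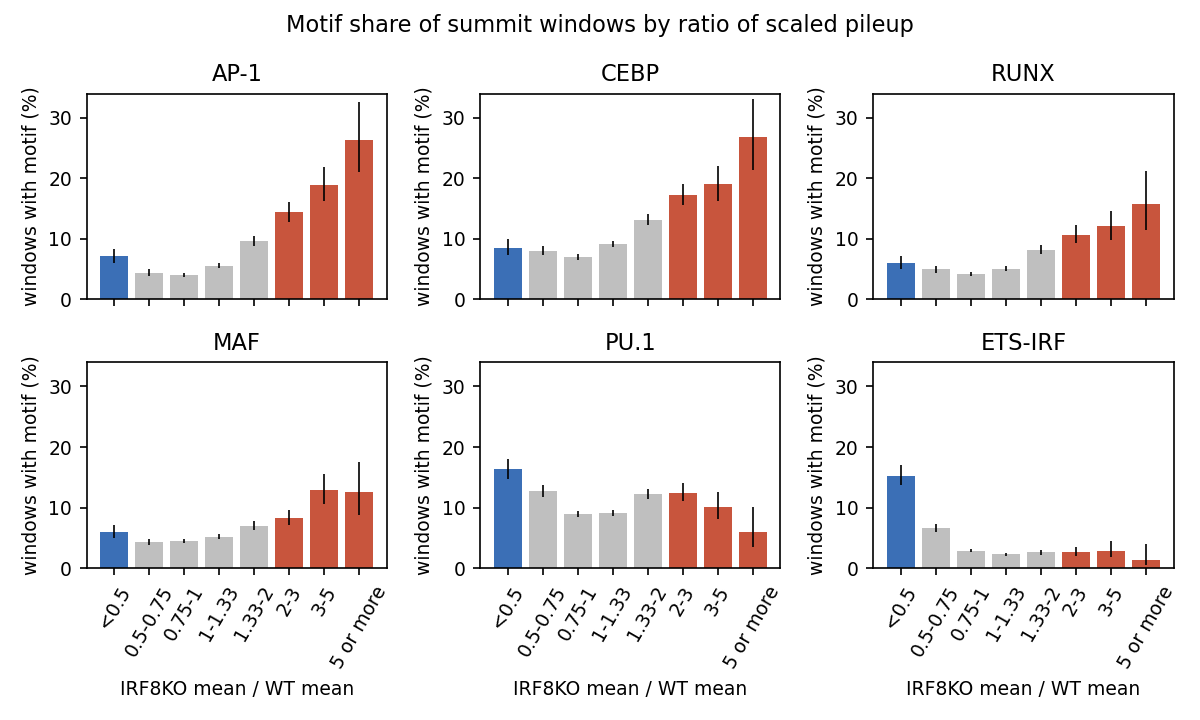
Share of the summit windows of all 37888 shared regions that held each motif (vertical axes, percent) by the ratio of the IRF8KO mean to the WT mean of scaled pileup (horizontal axes), with 95% Wilson intervals as error bars. Red bars are ratios of 2 or more, a set close to but not the same as the members, blue bars are ratios under 0.5 and grey bars lie between. AP-1, CEBP and RUNX reach their highest share at a ratio of 5 or more, whereas ETS-IRF is highest, at 15.3%, at ratios under 0.5.

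The matches lay about as far from the summit as in shared regions at large. The median distance of AP-1 matches was 41 bp in members and 42 bp in all shared windows, that of CEBP 50.5 and 48.5 bp, that of RUNX 38.5 and 42 bp and that of PU.1 37.5 and 32.5 bp. Windows with 2 or more AP-1 matches, as at Htra3, numbered 22 of 1716 among the members, 111 of 37888 among all shared and 3 of 1134 among the reverse regions. Windows with 2 or more CEBP matches, as at Csf3r, numbered 42, 251 and 6 of the same totals. Summits of IRF8KO replicate 1 were used for every set, so the windows of the reverse regions were centred on the weaker genotype.

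Members were found on all 19 autosomes. They made up between 3.15% of the shared regions (chromosome 11) and 7.01% (chromosome 16, 99 of 1412), around the 4.53% of all. The Nfkbiz, St6gal1, Cebpd and Runx1 regions named above lie on chromosome 16.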

How the data were processed

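ATAC-seq peak lists of 2 WT and 2 IRF8KO libraries were used. Peaks were called in each library separately with MACS2 2.1.1.20160309 with a p cutoff of 0.01 and cut sites shifted by 37 bp and extended to 73 bp, per the file headers. Bowtie2 and the mm10 build are named in the submitters' processing notes. The deposited pileup is an unscaled signal, the deposited fold enrichment is a ratio to local background, and the deposited p and q are −log10 values. These scores are the authors' own.

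Distinct autosomal peaks of at least 0.25 pileup per 1000000 tags were merged, and regions with such a peak in all 4 libraries were kept. Each library's largest pileup in a region was divided by its median over these regions. Positions come from GENCODE M21 on GRCm38, and regions were assigned to the nearest protein-coding TSS within 100 kb. Windows of 100 bp on each side of the summit were searched for 12 motifs. Calculations used Python 3.11.15, pandas 2.3.3, scipy 1.17.1 and pysam 0.24.0, and the region and ratio steps were tested on simulated data. No p-value is given for single regions, since 2 against 2 libraries cannot give an exact permutation p below 0.333 and the rule used the values.

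The members, gene lists and motifs were chosen with earlier results of these data known. Named regions are the 10 with the largest ratio, the 5 strongest in IRF8KO, the 5 promoter members with the largest ratio, up to 4 genes per list, the 3 genes with the most members (a tie taken alphabetically) and the 3 regions on each side of the threshold. Irf8 is named as the targeted gene. Other regions and genes named, among them the remaining members of the lists, the chemokine locus and further genes with several members, were chosen after their values were seen. Other settings tried were the peak minimum, merging distance, scaling, ratio, window, promoter distance and leaving out each library. Results at some named genes are not reported here. Chromosomes X and Y and scaffolds were left out of the counts.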

Additional observations from a re-analysis of the deposited data

Results flagged for a closer look

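Chromosome X lies outside the rule, which takes autosomes only, and it was examined as data not used in the report. Of its 829 shared regions 17 (2.05%) had both IRF8KO scaled values at least 2 times both WT values, and 10 met the reverse rule. The region with the largest ratio lay between genes at chrX:106134853-106135214, 8.02 kb from Tlr13, an endosomal receptor for bacterial RNA. Its pileup was 25 and 17 in WT and reached 91 and 136 in IRF8KO, a ratio of 3.64. The share of regions past the rule on this chromosome was below the 4.53% of the autosomal shared regions.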

How the results depend on the processing

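The number of regions past the rule moved with every threshold, as looser or stricter criteria admit more or fewer by construction. It was 3058 and 787 at 0.5 and 2 times the peak minimum, 3516 and 576 at a ratio of 1.5 and 3, 693 with scaling by total tags and 631 with the authors' fold enrichment in place of pileup. Leaving out a library gave 2441 to 2849, as fewer values have to pass, and the highest came without WT replicate 2. With peaks merged over gaps of 100 bp it was 1652, and with the median over promoters as the scale 2036. The promoter share was 15.0% within 2.5 kb of a TSS, 11.9% and 7.47% at a ratio of 1.5 and 3, and 9.79% to 11.9% without each library.

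Motif shares moved with the window by construction. In windows of 50 bp on each side of the summit AP-1 was found in 11.4% of members, CEBP in 10.1%, RUNX in 7.401%, PU.1 in 6.35% and ETS-IRF in 0.758%, against 3.75%, 4.83%, 3.25%, 7.42% and 1.82% of all shared windows. With 250 bp on each side they were 25.2%, 31.9%, 20.2%, 13.9% and 5.24%, against 10.5%, 19.1%, 11.3%, 12.7% and 6.95%. At a ratio of 1.5 AP-1 was found in 15.8%, CEBP in 18.2% and PU.1 in 11.6%, and at a ratio of 3 AP-1 in 22.7%, CEBP in 22.2%, RUNX in 13.9% and PU.1 in 8.33%. Scaling by total tags gave 21.9% for AP-1 and 7.79% for PU.1, and the fold enrichment gave 23.0% for AP-1, 22.5% for CEBP and 13.8% for RUNX. Without each library AP-1 lay between 16.7% and 17.4% and PU.1 between 9.95% and 12.7%. The cause of the moves under other scalings and without a library was not tested. In every setting run, AP-1, CEBP and RUNX stayed above and ETS-IRF below the 6.40%, 9.54%, 5.75% and 3.78% of all shared regions or the window's own background. The background was recomputed for the other windows only, and not for settings that changed the shared regions or the summit. PU.1 did not keep its side of 10.5%.

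No paired analysis was possible because the results come from no test and the replicate numbers are not stated to pair libraries. Both WT pileups were under 20 in 363 members, whose ratios rest on few cut sites.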
